A study of Mus musculus with 10 samples.

Results

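Mouse genes that were still known by the name of a RIKEN cDNA clone form the subject here. The clone libraries numbered 4921 and 4933 were made from testis, and many genes first seen in them still carry the clone number as their only name. Rows of the 4 deposited gene tables were taken when the gene name began with 4921 or 4933 and ended in Rik and the locus was not on X or Y. That gave 151 of 36806 rows, 40 of them 4921 clones and 111 of them 4933 clones, and 11 further rows on X or Y were left out. The rule itself uses only names and loci, not levels. By gene identifier, 134 members matched a current symbol in the reference table, and 50 of them carry a later gene name in place of the clone name. The 2 symbols 4933414I15Rik and 4933400F03Rik each stand on 2 rows.

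The samples came from the male germline of C57BL/6 mice, as Ago4+/+ and Ago4-/- littermates. AGO4 is an Argonaute protein, one of the family that binds small RNAs and uses them to find target RNAs. Libraries of mRNA were made from pachytene cells and from leptotene/zygotene cells, both at 70 days of age, and from whole testes at 3 days and at 8 days, with 1 library of each genotype at each stage. Each of the 4 tables compares 2 libraries that its header calls only the first and the second condition, and nothing in the sources used here says which of them is the mutant, or that the order is the same in every table. The 4 tables are labelled day 3, pre-meiotic, leptotene/zygotene and pachytene, and no label says which ages of young testis the pre-meiotic table holds. Values below are therefore given as first and second library, and no direction is drawn for a genotype.

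The germ cells of a mouse testis pass through mitotic spermatogonia, the long prophase of meiosis and the haploid spermatid stages. Leptotene and zygotene are the steps at which homologous chromosomes find each other, and pachytene is the step at which they are fully paired. Many genes are transcribed in the testis alone, most of them from pachytene onward and in spermatids, where flagellum, acrosome and packed chromatin are built. Clone names of the RIKEN type persist mainly where no function has been assigned, and the genes behind them include protein-coding genes and noncoding transcripts, some lying antisense to a named gene.

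The levels are FPKM, fragments scaled for transcript length and for the mapped total, which can be compared between genes because they are per length. The absolute depth of the libraries is unknown. Among low rows the value of 1 fragment in the second library relative to the first was most often 1.17 at day 3, 0.673 in the pre-meiotic table, 0.916 in the leptotene/zygotene table and 1.91 in the pachytene table, so that the second pachytene library was about 1.91 times shallower. Each genotype was sequenced once at each stage, so no value has a replicate, and no SD or test between genotypes can be given. The table labelled leptotene/zygotene went against its label in the spermatid markers and in most of the leptotene and zygotene markers. Summed over 8 spermatid markers its libraries stood at 49692.8 and 58919.9 FPKM, against 7833.73 and 9931.96 in the pachytene table, and all 8 were higher in its mean. Summed over the 6 leptotene and zygotene markers found, its libraries stood at 133.5 and 112.6 FPKM, below the pachytene libraries at 361.3 and 353.3. Of these 6, 2 were higher in its mean. They were Dmc1, at 3.02 and 3.73 against 1.75 and 4.02 FPKM, and Prdm9, at 4.90 and 4.90 against 3.18 and 4.83 FPKM. Of 5 meiotic entry markers, 3 were higher in its mean. It is called the table labelled leptotene/zygotene below, and the count of members by highest table and the count of members seen in spermatocyte but not young testis libraries are also given without it. Its makeup was not tested further, and in bulk RNA fewer cells of a type and less RNA per cell cannot be told apart.

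The results below turn on a few members that the authors' comparison called in both spermatocyte tables or that stand out by stage, and 4 of their upstream regions are shown first. The reference table of RefSeq promoters on build GRCm38.p6 held a window for 107 member rows, which are 105 genes with 113 windows. The 250 bases before the annotated start are printed 5′ to 3′ on the strand of the gene, in lower case, with capitals marking matches to any of 4 motifs searched on both strands. These were the core TGACG of the cAMP response element and the full element TGACGTCA, which contains that core, the MYB motif AACGG, and the RFX X-box core GTTGCC. 4921509C19Rik (chr2:151476152-151476401, minus strand) and 4921528I07Rik (chr9:114317029-114317278, minus strand) are the members called lower by the widest margin, 4933433G15Rik (chr9:75409934-75410183, plus strand) is the member called higher by the widest margin, and 4933427D06Rik (chr6:89095860-89096109, plus strand) is the member that stands highest in pre-meiotic testis relative to the other stages. 4933427D06Rik has a second window (chr6:89100768-89101017), which is not printed.
4921509C19Rik: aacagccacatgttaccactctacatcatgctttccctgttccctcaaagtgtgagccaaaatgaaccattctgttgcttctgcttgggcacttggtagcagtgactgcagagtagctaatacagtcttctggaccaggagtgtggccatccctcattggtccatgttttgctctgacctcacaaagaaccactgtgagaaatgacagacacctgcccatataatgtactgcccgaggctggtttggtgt
4921528I07Rik: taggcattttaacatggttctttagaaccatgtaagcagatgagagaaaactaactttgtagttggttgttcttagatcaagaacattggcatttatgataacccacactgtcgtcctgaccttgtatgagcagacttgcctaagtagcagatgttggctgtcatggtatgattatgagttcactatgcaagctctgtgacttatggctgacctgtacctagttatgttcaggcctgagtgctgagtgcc
4933433G15Rik: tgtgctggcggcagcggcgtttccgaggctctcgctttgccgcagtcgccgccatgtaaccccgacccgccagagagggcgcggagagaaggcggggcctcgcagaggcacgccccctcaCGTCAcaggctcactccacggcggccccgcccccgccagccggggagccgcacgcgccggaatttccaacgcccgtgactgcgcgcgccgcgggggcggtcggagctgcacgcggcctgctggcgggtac
4933427D06Rik: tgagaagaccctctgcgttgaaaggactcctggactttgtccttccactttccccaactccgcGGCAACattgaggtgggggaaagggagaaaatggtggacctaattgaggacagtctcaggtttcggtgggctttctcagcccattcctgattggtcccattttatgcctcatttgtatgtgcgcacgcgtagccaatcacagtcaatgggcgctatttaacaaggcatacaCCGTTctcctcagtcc

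The 4 windows differ in base composition. G and C made up 48.4% of the 4921509C19Rik window and 42% of the 4921528I07Rik window, and each held 1 CpG. The 4933433G15Rik window was 75.2% G and C with 37 CpG, a G and C share above that of 96.1% of all 32851 windows. In the tables' coordinates the row of another gene, Mapk6, ends 168 bases before this member. That is closer than the 250 bases of the window, which may thus take in part of Mapk6. The printed 4933427D06Rik window lay between them at 51.2% with 9 CpG, next to a median of 52.4% over the member windows and 52.4% over all windows. The core TGACG lay on one strand of the 4933433G15Rik window at position -130 from the start, and the printed 4933427D06Rik window held GTTGCC at -187 and AACGG at -16. The second 4933427D06Rik window, 47.6% G and C with 1 CpG, held none of the 4 motifs. Neither of the windows of the members called lower held any of the 4 motifs, which says only that these letters are not in those 250 bases.

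Over all member genes with a window, TGACG was found in 21.9% of 105, beside 19.8% of 27025 genes in the reference table. The full element TGACGTCA was found in 1.90% of the member genes and 1.77% of all genes. AACGG was found in 21.9% and 16.5%, and GTTGCC in 18.1% and 11.8%. A match is a description of the letters and not a bound site.

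The members were transcripts of the spermatocyte tables. A level of 1 FPKM in both libraries was reached by 28 of 151 members (18.5%) at day 3 and by 37 (24.5%) in the pre-meiotic table. It was reached by 126 (83.4%) in the table labelled leptotene/zygotene and by 125 (82.8%) in the pachytene table. Over all 33800 rows off X and Y the same shares ran the other way, at 45.6%, 44.2%, 39.4% and 40.5%. The median member stood at 0.117 and 0.0846 FPKM in the first and second day 3 libraries and at 0.432 and 0.291 FPKM in the pre-meiotic libraries. It stood at 13.4 and 9.40 FPKM in the table labelled leptotene/zygotene and at 11.5 and 10.4 FPKM in the pachytene table. Both spermatocyte tables thus stood far above both young testis tables, in each of their libraries.

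**Figure D1:**
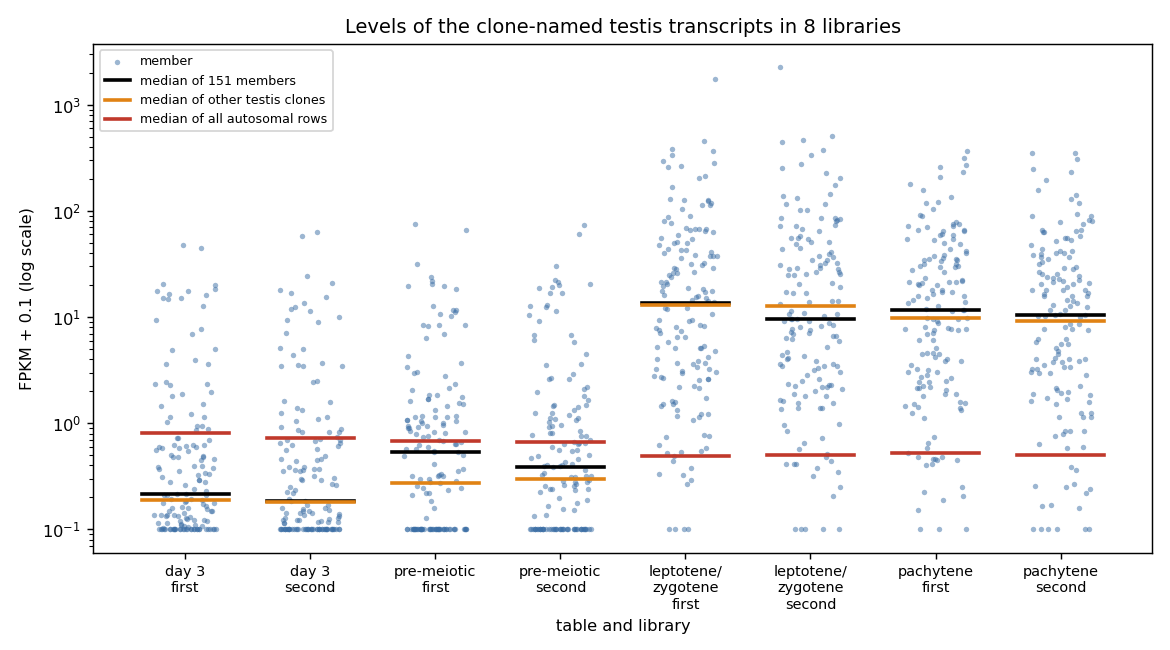
FPKM plus 0.1 on a log axis for every member (points) in the first and second library of the 4 tables, with bars at the median of the 151 members, of the other testis clones and of all autosomal rows. The member medians sit at 0.0846 to 0.432 FPKM in the 4 young testis libraries and at 9.40 to 13.4 FPKM in the 4 spermatocyte libraries.

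This pattern was shared by clones of other testis libraries. Of 774 rows named for clones of other testis libraries (number 1700 and 4 more), the shares at 1 FPKM in both libraries were 18.2% at day 3, 20.8% in the pre-meiotic table, 80.9% in the table labelled leptotene/zygotene and 79.6% in the pachytene table. Of 1538 rows named for other RIKEN clones the shares were 47.5%, 47.7%, 35.7% and 39.4%, close to those of all rows. The members thus lay near the other testis clones, and their stage profile is not particular to them. The tables may have been normalized separately, so levels set side by side across tables are a description.

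Of the 151 members, 71 (47%) stood at 1 FPKM or more in all 4 spermatocyte libraries and under 1 FPKM in all 4 young testis libraries, beside 1504 of 33800 autosomal rows (4.45%). With the pachytene libraries alone in place of all 4 spermatocyte libraries, an alternative added after seeing the data, the counts were 73 of 151 (48.3%) and 1673 of 33800 (4.95%). Another 24 members (15.9%) stood at 1 FPKM or more in all 8 libraries, beside 10015 of 33800 autosomal rows. A further 11 stood under 1 FPKM in all 8, a count not made over all rows. No member was listed at 0 in all 8 libraries. A table mean of 1 FPKM was reached by 134 members, and 80 of these had their highest mean in the table labelled leptotene/zygotene, 40 in the pachytene table, 7 in the pre-meiotic table and 7 in the day 3 table. The same order for 19983 autosomal rows past that floor was 3432, 3505, 5231 and 7815. With the table labelled leptotene/zygotene left out, an alternative added after seeing the data, 115 of 130 members were highest in the pachytene table. That count was not made over all rows and is no result about the members. Without the doubted table, the contrast with young testis rests on the 73 of 151 members above, beside 4.95% of autosomal rows. The pachytene table also held spermatid markers, summing to 7833.73 and 9931.96 FPKM against 71.6 FPKM or less in each young testis library. Their part in the contrast was not tested.

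The most abundant member was 4933411K16Rik. Its first and second libraries stood at 0.385 and 0.199 FPKM at day 3, at 3.62 and 2.59 FPKM in the pre-meiotic table, at 1749 and 2261 FPKM in the table labelled leptotene/zygotene and at 318 and 347 FPKM in the pachytene table. Its locus in the tables, chr19:42120099-42145443 on a build that the sources used here do not name, is shared with Hoga1, an enzyme of hydroxyproline breakdown, which stood at 37.1 and 32.9 FPKM and at 16.6 and 11.8 FPKM in the spermatocyte tables. The member was far above its locus partner in every spermatocyte library and below it in the day 3 libraries.

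Of the other abundant members, some stood much higher in the table labelled leptotene/zygotene than in the pachytene table. Spem2 (4933402P03Rik), named for spermatid maturation, stood at 454 and 506 FPKM in the table labelled leptotene/zygotene and at 75.1 and 80.5 FPKM in the pachytene table, with young testis at 0.728 FPKM or less. Spata32 (4933400C05Rik), a spermatogenesis-associated gene, stood at 128 and 173 FPKM and at 19.8 and 26.6 FPKM. 4921507P07Rik stood at 336 and 461 FPKM and at 59.1 and 74.4 FPKM, over 3.37 to 4.89 FPKM in the young testis libraries. In these members both libraries of the table labelled leptotene/zygotene were above both pachytene libraries by a wide margin.

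Other abundant members differed less between the spermatocyte tables. Cfap97 (4933411K20Rik), named for cilia and flagella, stood at 257 and 277 FPKM in the table labelled leptotene/zygotene and at 363 and 348 FPKM in the pachytene table. Erich2 (4933404M02Rik), a glutamate-rich protein gene, stood at 235 and 250 FPKM in the pachytene table, and its highest table mean was only 1.08 times the next. 4933415F23Rik stood at 384 and 446 FPKM and at 260 and 311 FPKM, with a highest mean 1.45 times the next. 4933409G03Rik stood at 285 and 252 FPKM and at 272 and 194 FPKM. In these 4 members the means of the tables were within 1.45-fold of each other. 4933402J07Rik lay between the kinds, at 364 and 373 FPKM against 156 and 119 FPKM, a mean 2.68 times the next.

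**Figure D2:**
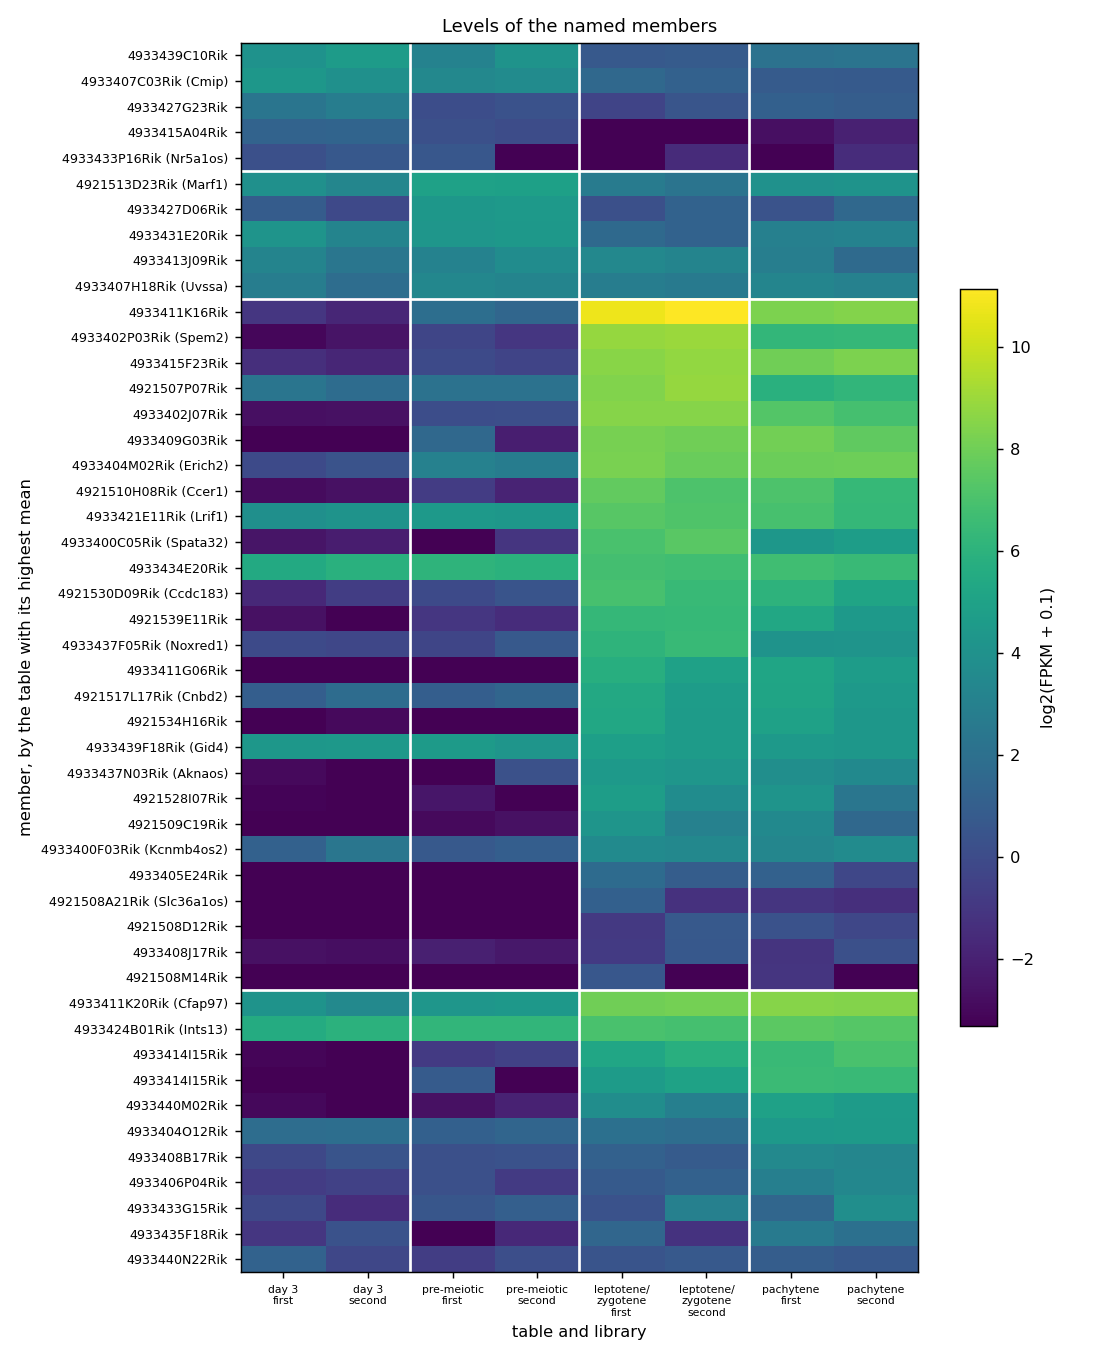
Heat map of log2(FPKM + 0.1) for the 48 members picked by a rule on level, ratio and stage, in the first and second library of each table, grouped from top to bottom by the table with the highest mean (day 3, pre-meiotic, leptotene/zygotene, pachytene). Most rows are dark in the 4 young testis columns and bright in the 4 spermatocyte columns, with Ints13, 4933434E20Rik, Gid4, Lrif1 and Cfap97 also bright in young testis.

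Between the spermatocyte tables the members leaned to the one labelled leptotene/zygotene. Over 132 members at 1 FPKM in either table mean, the median log2 ratio of leptotene/zygotene to pachytene means was 0.36, with 84 above 0. Above 0 lay 5572 of 15561 autosomal rows and 437 of 681 other testis clones. In 63 members both leptotene/zygotene libraries were above both pachytene libraries, and in 39 the reverse held. Those 2 counts were not made over all rows and are no result about the members. The median over all autosomal rows was -0.34, and over the other testis clones it was 0.43. The spermatid markers had a median of 2.44, the pachytene markers -0.62 and the leptotene and zygotene markers -1.23. The members thus lay above all rows and level with other testis clones, and far below the spermatid markers.

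At least 4-fold higher means in the table labelled leptotene/zygotene were found for 13 of 132 members, a count that was not made over all rows. Beside Spata32, Spem2, 4933411K16Rik and 4921507P07Rik, some of these were named after their values were seen. Tmem239 (4933425O20Rik), a transmembrane protein gene, stood at 63.4 and 71.2 FPKM against 11.6 and 13.6 FPKM. Sppl2c (4933407P14Rik), an intramembrane protease of the signal peptide peptidase family, stood at 213 and 206 FPKM against 54.7 and 40.2 FPKM. Actl11 (4921517D21Rik), an actin-like gene, stood at 267 and 337 FPKM against 71.9 and 66.3 FPKM. Each was at or below 1.06 FPKM in every young testis library, and each had both libraries of the table labelled leptotene/zygotene above both pachytene libraries.

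The opposite end held 5 of 132 members with pachytene means at least 4-fold higher, again without a count over all rows. 4933404O12Rik stood at 21.5 and 23.1 FPKM in the pachytene table, at 3.90 and 3.54 FPKM in the table labelled leptotene/zygotene and at 2.03 to 3.61 FPKM in young testis. 4933408B17Rik stood at 11.3 and 10 FPKM against 2.12 and 1.71 FPKM, and 4933406P04Rik at 7.39 and 10.4 FPKM against 1.62 and 2.12 FPKM. For all 3 the pachytene libraries stood above every other library. Terb2 (4933406J08Rik), which was singled out after its values were seen, is not among the 5. Its log2 ratio of leptotene/zygotene to pachytene means was -1.90. Terb2 encodes part of the complex that tethers telomeres to the nuclear envelope in meiotic prophase. It stood at 6.76 and 8.5 FPKM in the pachytene table, at 2.69 and 1.25 FPKM in the table labelled leptotene/zygotene and at 2.96 and 3.40 FPKM in the pre-meiotic table. Its order followed that of the summed leptotene and zygotene markers, with the table labelled leptotene/zygotene below pachytene.

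**Figure D3:**
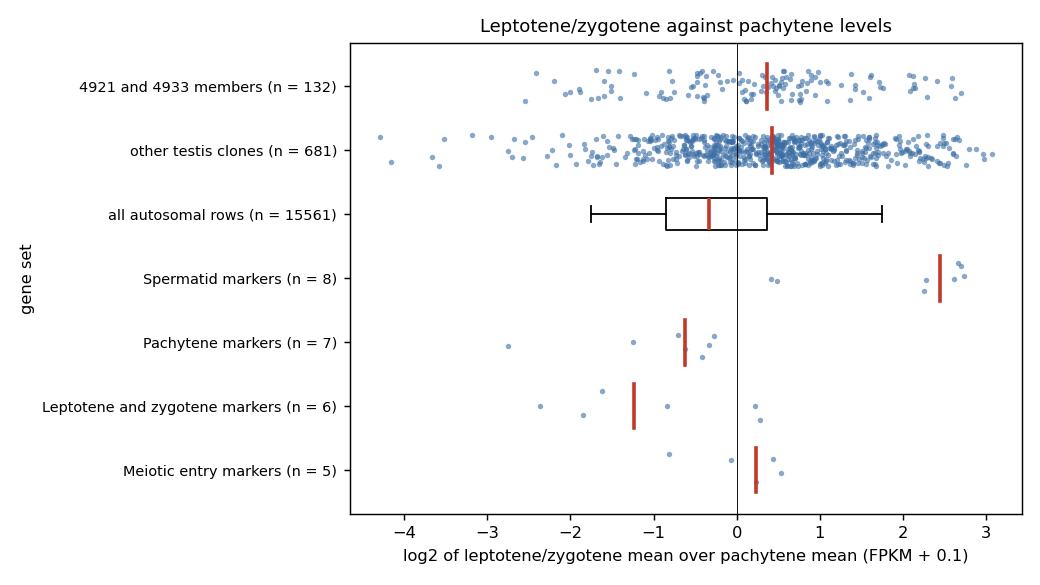
Log2 ratio of the leptotene/zygotene mean to the pachytene mean (FPKM + 0.1) for rows at 1 FPKM or more in either mean: points for each gene and a red bar at the median, or, for all autosomal rows, a box of the quartiles with whiskers at the 5th and 95th percentiles. The member median of 0.36 sits beside that of other testis clones at 0.43, with spermatid markers at 2.44 and leptotene and zygotene markers at -1.23.

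A minority of members belonged to young testis. The sharpest was 4933427D06Rik, whose upstream window is printed above. Its libraries stood at 1.72 and 0.818 FPKM at day 3, at 20.3 and 22.2 FPKM in the pre-meiotic table, at 1.07 and 2.25 FPKM in the table labelled leptotene/zygotene and at 1.22 and 2.88 FPKM in the pachytene table. Both pre-meiotic libraries stood far above the other 6, and the mean was 9.92 times the next highest. No other member with its highest mean in young testis exceeded the next table by 3-fold among those at 1 FPKM there, the nearest being 4933427G23Rik at day 3 with 4.78 and 7.0 FPKM and a mean 2.93 times the next. 4933427G23Rik shares its locus with Rint1, which stood at 71.9 and 71.3 FPKM at day 3.

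Marf1 (4921513D23Rik), an RNA-binding regulator of meiosis and retrotransposon RNA known from oocytes, was the next among members highest in the pre-meiotic table. It stood at 15.2 and 9.99 FPKM at day 3, at 31.4 and 30.1 FPKM in the pre-meiotic table, at 6.39 and 4.60 FPKM in the table labelled leptotene/zygotene and at 15.6 and 16.9 FPKM in the pachytene table. Its pre-meiotic libraries were the highest of the 8 and the pair labelled leptotene/zygotene the lowest. Cmip (4933407C03Rik), a signalling adaptor gene, stood at 19.9 and 15.3 FPKM at day 3 and at 1.71 and 1.64 FPKM in the pachytene table. 4933415A04Rik stood at 2.33 and 2.40 FPKM at day 3 and was listed at 0 in both libraries labelled leptotene/zygotene. Nr5a1os (4933433P16Rik), named as antisense to the steroidogenic regulator Nr5a1, stood at 1.04 and 1.49 FPKM at day 3, on a locus where Nr5a1 itself stood at 217 and 171 FPKM. The library kit that the labels name keeps no strand, so reads of an antisense transcript and of its partner cannot be told apart where they overlap.

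Some members were high throughout. Ints13 (4933424B01Rik), a subunit of the Integrator complex that cleaves nascent RNA, was the highest member at day 3 with 48.1 and 63.8 FPKM, stood at 74.8 and 72.9 FPKM in the pre-meiotic table and reached 178 and 158 FPKM in the pachytene table. 4933434E20Rik stood at 44.8 and 57.6 FPKM at day 3, 66.7 and 61.1 FPKM in the pre-meiotic table and 103 and 89.2 FPKM in the pachytene table. Gid4 (4933439F18Rik), the substrate receptor of the GID/CTLH ubiquitin ligase, was nearly flat, between 18.9 and 28.5 FPKM in all 8 libraries. All 3 share their loci with other rows, 1, 4 and 3 of them respectively, and 76 of the 151 members share a locus with another row.

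Several of the 24 members at 1 FPKM in all 8 libraries were singled out after their values were seen. Fam210a (4933403F05Rik), a mitochondrial protein gene, stood at 11.2 to 17.4 FPKM in the 4 young testis libraries and at 3.38 to 5.21 FPKM in the 4 spermatocyte libraries. Gskip (4933433P14Rik), which encodes a partner of the kinase GSK3, stood at 7.65 to 11.6 FPKM and at 3.56 to 5.78 FPKM. Map10 (4933403G14Rik), a microtubule-associated protein gene, ran the other way, at 2.23 to 2.83 FPKM and at 17 to 23.9 FPKM. In each of these the young testis and spermatocyte libraries did not overlap, which was not counted over all rows and is no result about the members. The 10015 autosomal rows at 1 FPKM or more in all 8 libraries had library medians of 27.6 to 29.4 FPKM in young testis. In the spermatocyte libraries their medians were lower, at 12.4 to 18.4 FPKM. Later-named members were more often present in young testis than the rest, which kept the clone name or matched no current symbol. A level of 1 FPKM in both day 3 libraries was reached by 15 of 50 (30%) against 13 of 101 (12.9%), a difference that was not tested.

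The comparison within each table asked how its 2 libraries differ in these transcripts. By the sample labels the libraries of a stage differ in Ago4 genotype, but no label says which ages the pre-meiotic table holds. The ratio given is log2((second + 0.1)/(first + 0.1)), with members counted when at least 1 of the libraries reached 1 FPKM. A row is called when the authors' deposited table gives a q-value of at most 0.05. Those q-values compare 2 libraries, not genotypes, and so have no replicate behind them. For 4933433G15Rik, 4921509C19Rik and 4921528I07Rik, the error that the authors' test statistic implies is given beside the ratio. That error covers counting and modelling and not the spread between animals.

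The typical member hardly differed between the libraries of a stage. The median log2 ratio was -0.03 over 36 members at day 3, 0.04 over 51 in the pre-meiotic table, -0.15 over 134 in the table labelled leptotene/zygotene and -0.15 over 133 in the pachytene table. All autosomal rows had medians of 0.05, -0.01, -0.07 and 0.03. The other testis clones had medians of 0.08, -0.11, -0.10 and -0.14. Of 133 members in the pachytene table, 79 (59.4%) lay below 0, beside 46.3% of all rows and 59.6% of the other testis clones, and the lean was thus no larger than theirs.

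At least 2-fold differences were few. In the table labelled leptotene/zygotene 5 of 134 members were at least 2-fold higher in the second library, beside 6.34% of all rows, and 10 were at least 2-fold lower, beside 7.25%. For pachytene, 3 of 133 were higher, beside 4.32%, and 11 were lower (8.27%), beside 5.99%. For the pre-meiotic table, 3 of 51 were higher, beside 4.2%, and 6 were lower (11.8%), beside 4.5%. At day 3 there were 2 of 36 higher, beside 3.86%, and 2 lower, beside 7.69%. The 6 lower pre-meiotic members stood at 3.29 FPKM or less, and their share lay under the 14.0% of 236 other testis clones. The remaining shares lay near or under the background of all rows. None of these shares is a result about the members.

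By the authors' q-value, 2 of 144 members tested were higher in the second library of the table labelled leptotene/zygotene (1.39%, beside 0.832% of all rows) and 8 were lower (5.56%, beside 1.37%). For pachytene, 1 of 146 was higher (0.685%, beside 0.628%) and 6 were lower (4.11%, beside 1.04%). The share of members called lower was above the background in both spermatocyte tables, and the other testis clones had 2.62% and 2.93% called lower there. The members also stood at higher levels there, with library medians of 9.40 to 13.4 FPKM beside 0.390 to 0.427 FPKM over all rows. The part of level in these shares was not tested. In the table labelled leptotene/zygotene 6 of the 8 lower calls were 4921 clones, out of 39 tested. At day 3, 3 of 92 were higher (3.26%, beside 4.91%) and 6 were lower (6.52%, beside 9.98%), both under the background. In the pre-meiotic table no member of 88 was called, beside 0.494% higher and 0.646% lower over all rows, and its lowest member q-value in the authors' deposited table was 0.145, for Gid4.

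Markers of other cells and stages also differed between the libraries of a table. In the table labelled leptotene/zygotene the summed FPKM of 5 erythrocyte markers was 39.6 and 336.0 in the first and second library, that of 4 myoid markers 5.43 and 23.8 and that of 4 endothelial markers 2.21 and 5.85. The pachytene libraries had sums of 6.47 and 17.2, 7.17 and 19.8, and 2.01 and 8.05. All 5 erythrocyte and all 4 endothelial markers were higher in the second library of both tables, as were 3 of 4 and 4 of 4 myoid markers, and none was at 0. The 8 spermatid markers summed to 1.19 and 1.27 times as much in the second library of those tables, with 6 and 5 of them higher. In the pre-meiotic table the leptotene and zygotene markers summed to 218.2 and 124.8 FPKM, with 0 of 6 higher in the second library, and the erythrocyte markers to 457.2 and 729.7 FPKM, with 5 of 5 higher. At day 3 the undifferentiated spermatogonial markers summed to 51.5 and 33.7 FPKM, with 1 of 7 higher, and the meiotic entry markers to 27.5 and 19 FPKM, with 1 of 5 higher. The part of these markers, and of the depth gap in the pachytene table, in the ratios of the members was not tested.

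A set of 5 members was called in both spermatocyte tables, each with the same sign in both. They make up 50% of the 10 called in the table labelled leptotene/zygotene and 71.4% of the 7 called in the pachytene table. Over all autosomal rows 113 were called in both, which is 27.9% of 405 and 32.3% of 350, and all 113 had the same sign. Across the 129 members past the floor in both tables the log2 ratios had a Pearson r of 0.57, beside 0.22 over 14168 autosomal rows. This is a correlation across genes, which are not independent replicates, and the points share the libraries and their depth.

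4933433G15Rik had the highest ratio of any member past the floor in each spermatocyte table. It lies alone at its locus, chr9:75257990-75265516 in the tables' coordinates. Its first and second libraries stood at 1.13 and 7.90 FPKM in the table labelled leptotene/zygotene and at 2.59 and 14.3 FPKM in the pachytene table. The log2 ratios were 2.70 (implied error 0.75) and 2.42 (implied error 0.37), with q-values of 0.0148 and 1.61e-08 in the authors' deposited table. Young testis stood at 0.773 and 0.255 FPKM at day 3 and at 1.35 and 2.00 FPKM in the pre-meiotic table, and it was called in neither. The high libraries were thus the second of each spermatocyte table, and both exceeded every young testis library.

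The nearest row to 4933433G15Rik is Mapk6, an atypical MAP kinase, which ends 168 bases away. Mapk6 stood at 188 and 240 FPKM in the table labelled leptotene/zygotene, with a log2 ratio of 0.35 and a q-value of 0.00484 in the authors' deposited table. In the pachytene table it stood at 127 and 144 FPKM, with a log2 ratio of 0.18 and a q-value of 0.588. The neighbour was far more abundant and its ratio was smaller by over 2 log2 units in both tables.

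4921509C19Rik had the lowest ratio among the members called in either spermatocyte table. Its locus is chr2:151296277-151301889 in the tables' coordinates, with no other row on it. It stood at 18.6 and 8.14 FPKM in the table labelled leptotene/zygotene and at 11.5 and 2.86 FPKM in the pachytene table. The log2 ratios were -1.18 (implied error 0.24) and -1.97 (implied error 0.41), with q-values of 0.000169 and 0.000399 in the authors' deposited table. In young testis it was listed at 0 in both day 3 libraries and at 0.0281 and 0.0568 FPKM in the pre-meiotic libraries. The row Gm14146 lies 927 bases away and differed in the same direction, with 23.9 and 10.4 FPKM in the table labelled leptotene/zygotene (log2 ratio -1.19, q-value 0.121) and 17.9 and 2.41 FPKM in the pachytene table (log2 ratio -2.84, q-value 0.00324), by the authors' deposited table. The next row on that side, Gm14150, stood at 34.4 and 43.2 FPKM in the pachytene table, with a log2 ratio of 0.33 and a q-value of 0.866 in the authors' deposited table. On the other side Nsfl1c, 18027 bases away, stood at 8.94 and 3.87 FPKM in the table labelled leptotene/zygotene (log2 ratio -1.19, q-value 0.277 in the authors' deposited table). In the pachytene table it stood at 14.8 and 14.7 FPKM, with a log2 ratio of -0.01. The lower second pachytene library was thus seen in this pair of rows and not in Gm14150 or Nsfl1c.

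4921528I07Rik behaved like 4921509C19Rik in both tables. Its locus is chr9:114185800-114226146 in the tables' coordinates, again with no other row on it. It stood at 26.3 and 13.1 FPKM in the table labelled leptotene/zygotene and at 17.7 and 5.05 FPKM in the pachytene table. The log2 ratios were -1.0 (implied error 0.21) and -1.79 (implied error 0.37), with q-values of 0.000487 and 0.000255 in the authors' deposited table. Its young testis libraries stood at 0.0840 FPKM or less. For both genes the second library was lower in each table and the pachytene ratio was the larger one, a difference between tables that was not tested.

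The other members called in both tables had smaller ratios. Ccdc183 (4921530D09Rik), a coiled-coil protein gene, stood at 124 and 86.4 FPKM in the table labelled leptotene/zygotene (log2 ratio -0.52, q-value 0.0267 in the authors' deposited table) and at 64.8 and 35.2 FPKM in the pachytene table (log2 ratio -0.88, q-value 0.0261). Cnbd2 (4921517L17Rik), a cyclic nucleotide-binding gene of sperm, stood at 43.0 and 25.2 FPKM (log2 ratio -0.77, q-value 0.000560) and at 34.3 and 21.6 FPKM (log2 ratio -0.67, q-value 0.0477), again by the authors' deposited table. Both share their loci with other rows, 4 and 5 of them respectively. At day 3 Ccdc183 was called the other way, at 0.212 and 0.511 FPKM, with a q-value of 0.0447 in the authors' deposited table and at levels far below those of the spermatocyte tables.

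**Figure D4:**
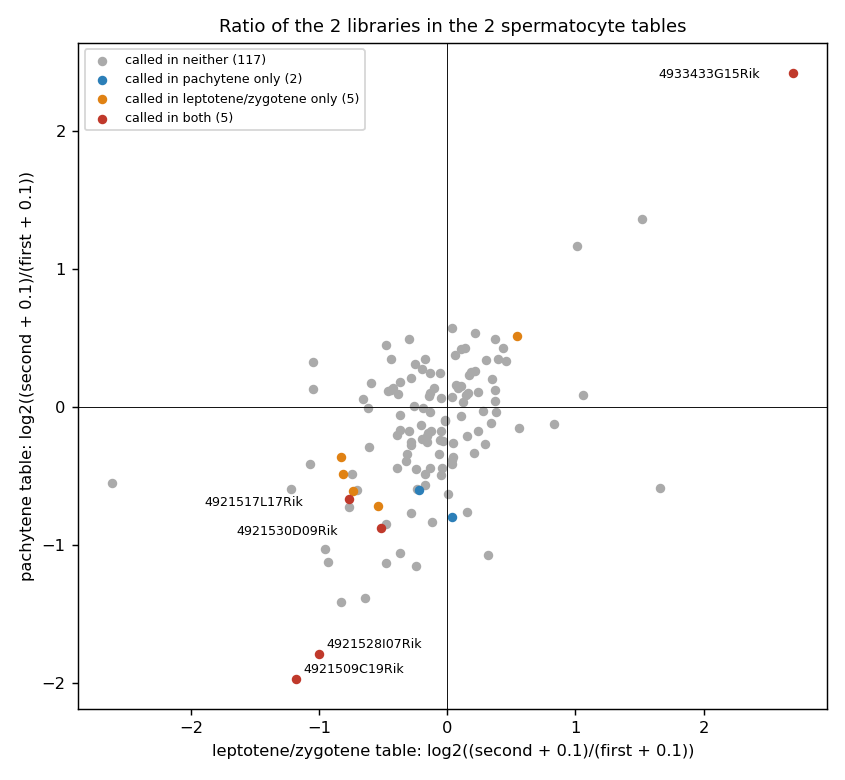
Log2 ratio of second to first library in the table labelled leptotene/zygotene (x) and in the pachytene table (y) for the 129 members past the floor in both, coloured by where the authors' q-value was at most 0.05. The 5 members called in both are labelled: 4933433G15Rik lies at 2.70 and 2.42, and 4921509C19Rik and 4921528I07Rik lie at -1.18 and -1.97 and at -1.0 and -1.79.

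In the table labelled leptotene/zygotene alone, 4 members were called lower and 1 higher. The lower ones were Ccer1 (4921510H08Rik), a coiled-coil glutamate-rich protein gene, at 202 and 139 FPKM, 4933411G06Rik at 54.1 and 30.8 FPKM, 4921534H16Rik at 41.3 and 24.8 FPKM and 4933440M02Rik at 13.4 and 7.52 FPKM. Their log2 ratios ran from -0.83 to -0.54. The higher one was the 4933414I15Rik row at 37.7 and 55.1 FPKM, with a log2 ratio of 0.55 and a q-value of 0.0256 in the authors' deposited table, which shares its locus with the other row of that name. In the pachytene table Ccer1 missed the threshold with a q-value of 0.0872 in the authors' deposited table and a log2 ratio of -0.72, so its absence from the shared calls rests on the threshold.

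In the pachytene table alone, Lrif1 and 4921539E11Rik were called, both lower. Lrif1 (4933421E11Rik), a nuclear protein that binds heterochromatin protein HP1, stood at 120 and 79.0 FPKM there (log2 ratio -0.60, q-value 0.000836 in the authors' deposited table) and at 166 and 143 FPKM in the table labelled leptotene/zygotene. 4921539E11Rik stood at 40.0 and 22.9 FPKM in the pachytene table, with a log2 ratio of -0.80 and a q-value of 0.0272 in the authors' deposited table, and at 80.1 and 82.3 FPKM in the table labelled leptotene/zygotene. Whether the pachytene ratio differed from the other table's was not tested for either gene.

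At day 3 the called members were mostly genes also present in later stages. 4933431E20Rik stood at 18.1 and 8.98 FPKM, with a log2 ratio of -1.0 and a q-value of 9.75e-05 in the authors' deposited table. It shares its locus with Gstm5, a glutathione transferase, at 116 and 151 FPKM. Cfap97 stood at 17.3 and 11.2 FPKM, Marf1 at 15.2 and 9.99 FPKM, 4933413J09Rik at 9.26 and 4.94 FPKM and Uvssa (4933407H18Rik), a factor of transcription-coupled DNA repair, at 6.80 and 3.46 FPKM. The last of the lower members was 4933427D06Rik, at 1.72 and 0.818 FPKM. Ints13, at 48.1 and 63.8 FPKM, and Kcnmb4os2 (4933400F03Rik), named as antisense to the potassium channel subunit gene Kcnmb4, at 2.17 and 5.0 FPKM, were called higher, as was Ccdc183. None of the lower members was called in the pre-meiotic table, where Marf1 stood at 31.4 and 30.1 FPKM and 4933431E20Rik at 19.5 and 20.5 FPKM.

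The widest uncalled ratios belonged to members near the floor. Among the pre-meiotic libraries, 4933409G03Rik stood at 2.86 and 0.133 FPKM (log2 ratio -3.67, q-value 0.204 in the authors' deposited table), and Aknaos (4933437N03Rik), named as antisense to Akna, was listed at 0 in the first library and stood at 1.09 FPKM in the second. Nr5a1os and 1 row of 4933414I15Rik were listed at 0 in the second pre-meiotic library, at 1.45 and 1.65 FPKM in the first. In the table labelled leptotene/zygotene 4921508M14Rik stood at 1.43 FPKM in the first library and was listed at 0 in the second. 4933435F18Rik changed order between tables, with 2.60 and 0.341 FPKM in that table and 0.397 and 1.15 FPKM at day 3, neither called. None of the members in this paragraph was called in the table for which its values are given.

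Ago4 itself, listed under its older symbol Eif2c4, stood at 0.897 and 1.23 FPKM at day 3, 2.53 and 3.34 FPKM in the pre-meiotic table, 1.67 and 3.26 FPKM in the table labelled leptotene/zygotene and 4.37 and 12.1 FPKM in the pachytene table. None of the labels says which stretch of the gene the allele deletes, so these levels do not check which library is the mutant.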

How the data were processed

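Each of the 4 deposited gene tables holds 36806 rows with FPKM values for 2 conditions, in the Cuffdiff format, as deposited by the authors. The submitters' processing notes name Cuffdiff, Cufflinks 1.1.0, Bowtie 0.12.7 and TopHat 1.3.0 without their roles. No genome build is named there or in the file headers. The authors' deposited q-value was used for calls at q of at most 0.05 with a status of OK, and the authors' deposited test statistic, a score, gave the implied error as the size of the log2 ratio divided by that of the statistic. The authors' own fold column was not used. Small RNA libraries were not analysed here.

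Ratios used a pseudocount of 0.1 FPKM and a floor of 1 FPKM in 1 of the libraries. The ratio of the value of 1 fragment between libraries was read from untested rows above 0 in both, of which 19.0% to 24.1% had the commonest ratio. The scripts were tested on simulated data (Python 3.11.15, pandas 2.3.3, numpy 2.4.6, matplotlib 3.10.9). By rule, the members named in the text were the 5 highest means, every call, the 3 highest and 3 lowest ratios and the 3 most above the next stage in each table, which gave 48 members, and a few more were singled out after their values were seen, as the text says of each. The members and lists were chosen with earlier results of these data known. Alternatives were the floor, the pseudocount, centring, the q-value threshold, single libraries and a scaling of levels.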

Additional observations from a re-analysis of the deposited data

How the results depend on the processing

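With 1 library per genotype and stage no replicate could be left out, and no paired analysis was possible because no test of samples was made. Of 99 alternatives, 72 stayed within 1.5 times the count given above, or within an order-statistic interval of the median, and 27 moved. That interval is taken over genes, which are not independent replicates, and it was wide, from -0.38 to 0.29 at day 3. No alternative median left its interval, so staying within it says little about how stable the medians are. A pseudocount of 1 FPKM shrank the counts of members at least 2-fold higher and lower to 0 and 0 at day 3, 1 and 3 in the pre-meiotic table, 1 and 4 in the table labelled leptotene/zygotene, and 1 and 4 in the pachytene table, as it pulls low rows together. With no floor they were 5 and 11 at day 3, 16 and 23 in the pre-meiotic table and 6 and 18 in the pachytene table, from more rows near 0. Centring on all autosomal rows gave 4 members lower at day 3. Calls by the authors' deposited q-value at 0.01 fell to 5 at day 3, 3 in the table labelled leptotene/zygotene and 4 in the pachytene table, and at 0.1 they were 17 at day 3. Members alone at their locus, a set added after seeing the data, gave 3 calls of 48 tested at day 3 (6.25%, beside 9.78% of all members). In the table labelled leptotene/zygotene they gave 6 calls of 74 tested (8.11%, beside 6.94%). They gave 3, 39 and 22 members highest at day 3, in that table and in the pachytene table, from 69 members in place of 134. Scaling each library by its median left 4 members highest in the pre-meiotic table and 26 in the pachytene table. Leaving out the table labelled leptotene/zygotene put 115 of 130 members highest in the pachytene table, a count not made over all rows. The median log2 ratio kept its sign except in the pre-meiotic table, where it was -0.03 with no floor in place of 0.04. At day 3 it ranged from -0.15 to -0.01, in the table labelled leptotene/zygotene from -0.15 to -0.08 and in the pachytene table from -0.19 to -0.08. The unknown depth, the single library per genotype and stage and the unknown genotype order limit every ratio.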
